A study of Mus musculus with 47 samples.

Results

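The nuclear factor I (NFI) and Id transcription factor genes were examined in single GABAergic neurons that express neuropeptide Y. The 8 genes, Nfia, Nfib, Nfic, Nfix, Id1, Id2, Id3 and Id4, were taken by their symbols from a table of 22800 genes, and all 8 were found in it. The table holds the reads of 47 libraries, each made from the cytosol of 1 cell drawn into a patch pipette, from acute brain slices of 8 mice of 3 to 8 weeks. The mice are called NPY-EGFP in the series and NPY-hrGFP in the study's methods, and a green fluorescent protein driven by the Npy promoter marked the cells to be sampled; all cells, the single NPY-negative cell included, came from this strain and no drug or other treatment is given for them. The labels place 20 NPY-positive cells in auditory cortex (AC), 21 in hippocampal CA3, 3 in CA1 and 2 in the dentate gyrus (DG), and the NPY-negative cell in CA3. The regions were compared over 26 listed cells, 10 of AC, 13 of CA3 and the 3 of CA1. The mouse behind each cell is not given in the sources used here, and every region therefore counts as 1 sample: differences between regions are set against the spread over cells and no test was made.

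The NFI genes encode DNA-binding proteins that pair with each other or with themselves and recognise a palindrome containing TTGGC. In the developing brain they take part in the switch of progenitors to making glia, and mature astrocytes as well as many neurons keep expressing some of them. The Id genes (inhibitors of DNA binding) encode helix-loop-helix proteins that lack the DNA-contacting region, so that they hold E proteins and other helix-loop-helix partners away from DNA. They are well-known targets of bone morphogenetic protein (BMP) signalling through Smad proteins, and Id2 is used as a marker of cortical neurogliaform and related interneurons derived from the caudal ganglionic eminence.

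The listed cells held between 601781 reads (a CA1 cell) and 7949918 reads (a CA3 cell), with medians of 3271802 reads in AC and 3595383 in CA3. Genes with a read numbered 3163 to 6288 in AC cells, 3679 to 8149 in CA3 cells and 4367 to 6095 in CA1 cells. The fewest were in the AC cells N42 (3163) and N41 (3293). Gad1 and Gad2, which encode the enzymes that make GABA, had reads in all 26, as did Npy. Reads of glial genes were found in them as well. Reads of 12 astrocyte genes summed to between 0.303 and 3252 counts per 1000000 reads (CPM) in AC, 0 and 660 CPM in CA3, and 155 and 1683 CPM in CA1, with medians of 265 CPM in AC and 37.9 CPM in CA3. Of the defining astrocyte genes, the water channel gene Aqp4 had no read in any listed cell, but the glutamate transporter gene Slc1a3 had reads in 6 of 10 AC cells and 1 of 13 CA3 cells, and Sox9 in 4 of 10 and 0 of 13. Oligodendrocyte genes reached at most 367 CPM in AC, 1043 CPM in CA3 and 567 CPM in CA1. Microglial genes reached 6041, 2392 and 643 CPM, with medians of 441, 142 and 280 CPM. In the libraries without a Gad1 read described below they reached at most 841 CPM, less than the highest AC and CA3 cells. The part of these glial genes in the values below was not tested. Another AC library, N4X, carried nearly the same profile as the listed cell N4 at another depth (3242922 against 1715012 reads): their difference per degree of freedom was a chi-square of 2.24, against at least 44.1 in 399 other pairs of libraries, and they were treated as 1 cell wherever both could enter.

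The families differed in how many of their genes were widely read. Among the Id genes 1 gene, Id2, was read in all 26 listed cells, whereas Id1 was read in 3, Id3 in 1 and Id4 in 1. Among the NFI genes Nfib was read in 25 and Nfix in 23, against 11 for Nfia and 9 for Nfic. After every listed cell was thinned to 100000 reads, the counts of cells with a read were 26 for Id2, 25 for Nfib and 22 for Nfix, and 6 for Nfia, 7 for Nfic, 2 for Id1, 1 for Id3 and 1 for Id4.

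**Figure D1:**
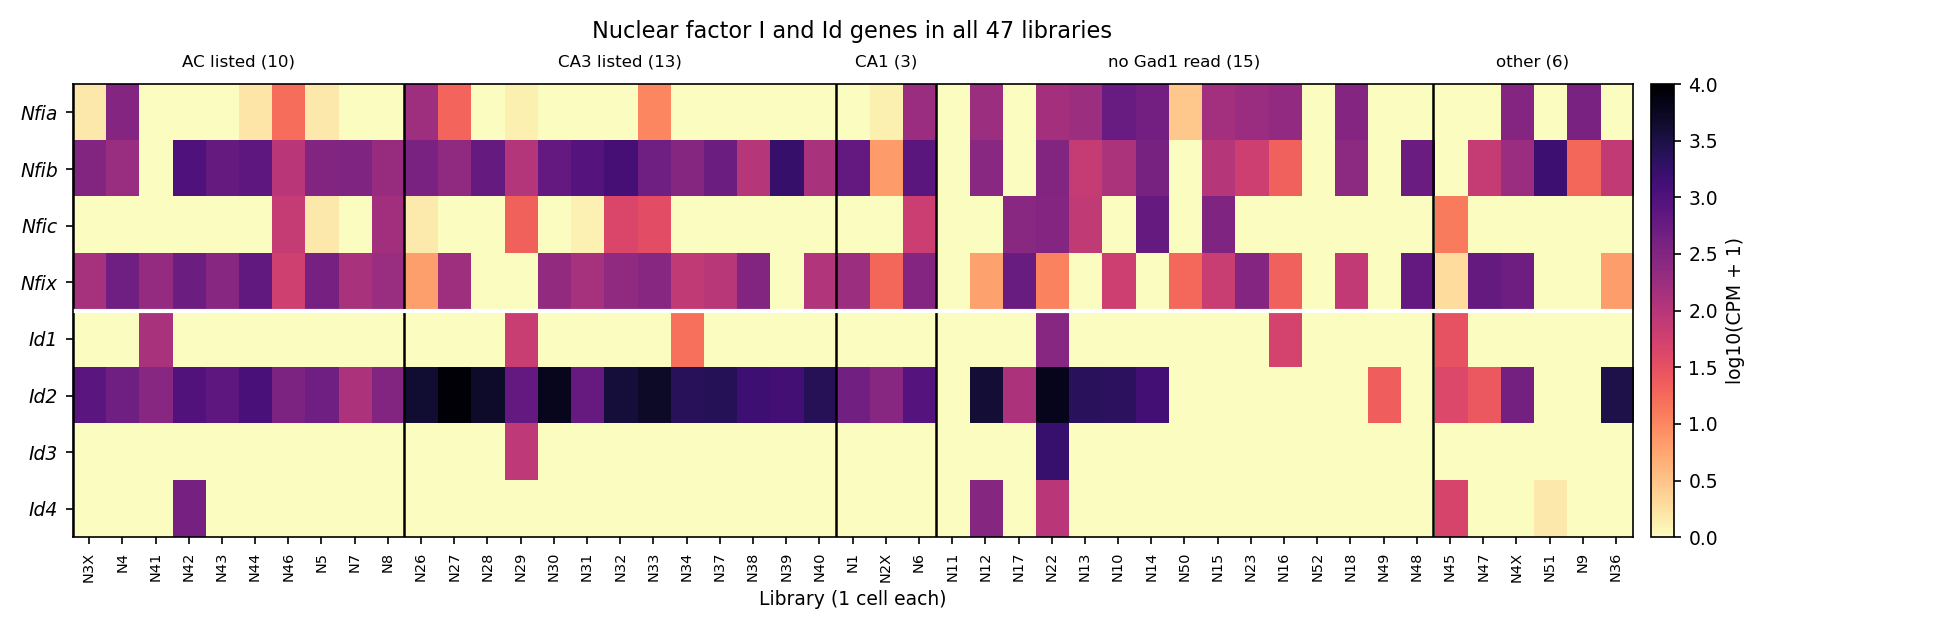
Each column is 1 library and each row a gene; colour gives log10(CPM + 1). Id2 is dark across the listed AC, CA3 and CA1 cells and darkest in CA3, Nfib and Nfix are dark in most of them, and Id1, Id3 and Id4 appear in single cells; the 15 libraries without a Gad1 read are ordered by their summed astrocyte genes.

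Promoters in RefSeq (assembly GRCm38.p6) were found for 6 of the 8 genes. The 250 bases before the start are shown for Id4, an Id gene read in 1 of 26 neurons, and for the first listed start of Nfix, the NFI gene with reads in every AC cell, because their letters differ plainly; RefSeq lists 4 starts for Nfix, and the reads do not say which was used. Capitals mark the GC box letters GGGCGG, the CCAAT box, the core of the cyclic AMP response element TGACG, and the TATA box letters TATAAA, each on either strand and read 5′ to 3′ on the strand of the gene.
Id4, chr13:48260866-48261115, plus strand: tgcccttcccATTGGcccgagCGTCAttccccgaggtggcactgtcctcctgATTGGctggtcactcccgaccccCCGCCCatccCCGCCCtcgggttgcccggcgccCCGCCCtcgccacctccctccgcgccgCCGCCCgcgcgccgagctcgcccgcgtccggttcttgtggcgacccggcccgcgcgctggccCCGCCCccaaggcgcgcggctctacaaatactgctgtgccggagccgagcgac
Nfix, chr8:84780083-84780332, minus strand: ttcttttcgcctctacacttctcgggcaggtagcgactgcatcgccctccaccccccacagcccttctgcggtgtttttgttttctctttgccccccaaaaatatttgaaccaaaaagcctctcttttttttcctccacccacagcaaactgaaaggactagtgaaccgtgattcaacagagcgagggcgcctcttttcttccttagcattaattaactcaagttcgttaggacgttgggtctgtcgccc
The Id4 window is 75.6% G or C and holds 5 GC boxes, 2 CCAAT boxes and 1 response element core, with no overlap among these matches. The Nfix window is 49.2% G or C and holds none of the 4 motifs, which says only that these letters are not in it; the windows of the other 3 Nfix starts each hold 1 CCAAT box, and one of them also 2 GC boxes. The matching window of Id2 holds 3 CCAAT boxes and 1 GC box; it is not printed, as 161 of its 250 bases lie in an exon of another annotated Id2 transcript. Of 32851 mouse promoters read the same way, 33.8% held a CCAAT box, 32.7% a GC box, 17.8% the response element core and 12.4% the TATA box letters. The letters TTGGC, which share 4 bases with a reversed CCAAT, occur in 41.5% of promoters, among them the windows of Id2, Id3 and Id4 and of 2 of the 4 Nfix starts, though not the Nfix window above.

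Id2 (chr12:25093799-25097140, minus strand, GRCm38) was the most abundant of the 8 genes and the one whose level differed most between regions relative to the spread over cells. AC cells held between 277 (N7) and 3810 (N44) Id2 reads, with a median of 1581. CA3 cells held between 2044 (N29) and 22063 (N27) reads, with a median of 10822, and the CA1 cells N1, N2X and N6 held 279, 893 and 1077. Scaled to depth, 11 of the 13 CA3 cells lay above every AC cell, and the other two, N29 at 645 CPM and N31 at 591 CPM, lay within the AC range of 123 to 1156 CPM; 6 of the 10 AC cells lay below every CA3 cell. The level, log2 of the size-factor normalised count plus a pseudocount of 1, averaged 10.68 ± 1.05 (SD) over the 10 AC cells and 13.06 ± 1.23 over the 13 of CA3. The difference of -2.38 exceeded the SD in either region. It was -1.48 relative to the median difference of all genes read in at least 10 of the AC and CA3 cells, which was -0.91. Summed over cells, Id2 stood at 565 CPM in AC (95% Poisson interval 557 to 573) and 2933 CPM in CA3 (2918 to 2948), which is 5.19 times as much in CA3; here and below these intervals cover counting error only, since reads of amplified cDNA are not independent molecules.

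The order of the cells by Id2 showed how wide the CA3 cells were. N27 was highest at 8824 CPM, followed by N30 at 5847 CPM, N33 at 5029 CPM and N28 at 4851 CPM, and the median CA3 cell N37 had 2535 CPM. N38 and N39, with 1477 and 1297 CPM, were nearest to the AC cells among those above them, and the highest AC cell, N44, followed with 1156 CPM. The summed astrocyte genes were 191 CPM in N27, 37.9 CPM in N30, 0 in N33 and 407 CPM in N28. Their highest sum in CA3 was 660 CPM, in N39, and in AC 3252 CPM, in N4, which had 475 CPM of Id2. The part of the astrocyte genes in the Id2 values was not tested. The summed microglial genes were higher in most of the CA3 cells at the top of this order (2392 CPM in N27, 142 in N30, 877 in N33, 1089 in N28, 1356 in N26 and 1361 in N32) than in those below (0.801 to 310 CPM in the other 7), and among AC cells the highest sum, 6041 CPM, was in N42, with 943 CPM of Id2; their part in the Id2 values was not tested. With each cell left out in turn, the AC to CA3 difference ran from -2.56 to -2.14.

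**Figure D2:**
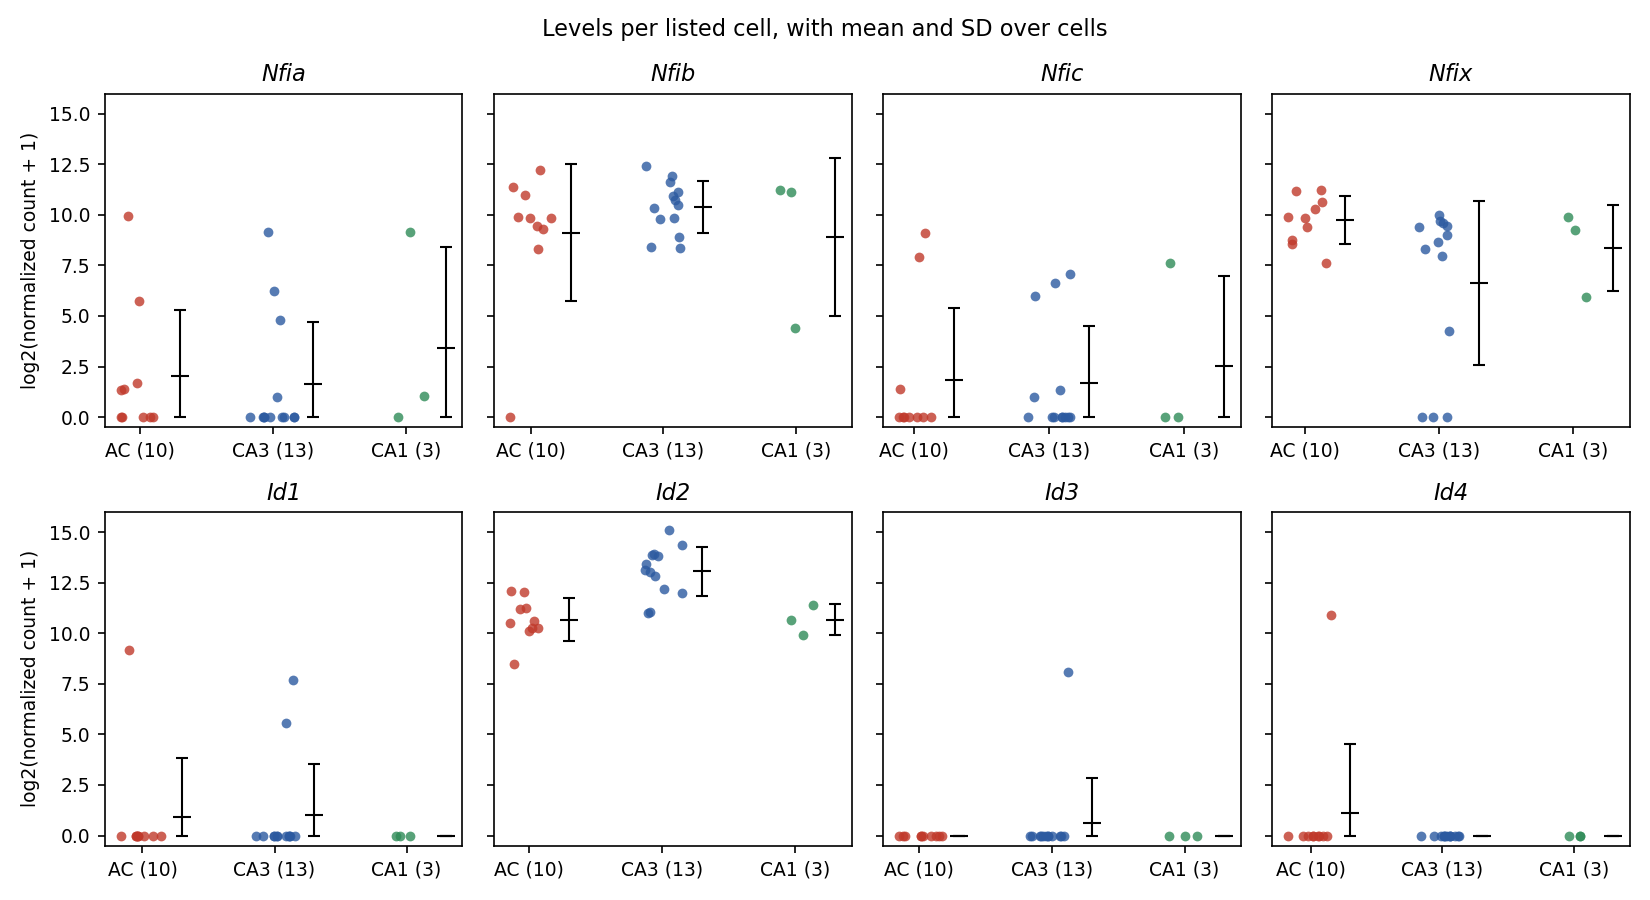
Each point is 1 listed cell and the vertical axis is log2(normalised count + 1), with 0 for no read; bars give the mean and SD over cells, cut off at 0 where they would pass below it. The CA3 points of Id2 sit mostly above those of AC and CA1, the 3 CA3 points of Nfix at 0 pull its CA3 mean down to 6.64, and 1 AC point of Nfib lies at 0.

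The other Id genes were read in single cells, at levels that were not small where they occurred. Id1 (chr2:152736251-152737410, plus strand) had 563 reads in the AC cell N41, 205 in the CA3 cell N29 and 74 in the CA3 cell N34, and none in the other 23 listed cells. Id3 (chr4:136143497-136145755, plus strand) had 271 reads in N29 and none in the other 25, and Id4 (chr13:48261228-48266026, plus strand) had 1613 reads in the AC cell N42 and none in the other 25. N29, the CA3 cell with the fewest Id2 reads, was thus the only listed cell with Id1, Id2 and Id3 together. N42, the cell with Id4 reads, held 1010 CPM of astrocyte genes and 6041 CPM of microglial genes, the highest microglial sum of the listed cells. Their part in the Id4 value was not tested. Genes of endothelial and mural cells, which summed to at most 1.43 CPM in 10 of the 13 CA3 cells, summed to 81.5 CPM in N29 and 33.7 CPM in N34, to 72.9 CPM in N31, which had no Id1 or Id3 read, and to 0.458 CPM in N41; their part in the Id1 and Id3 values was not tested. In the other groups the count of 0 allowed at most 3 reads over all cells, which is 0.0881 CPM for Id3 in AC and 0.0614 CPM for Id4 in CA3, and 0.596 CPM for each of Id1, Id3 and Id4 in CA1. Reads of the 3 genes in 1 of 10 cells (exact 95% binomial interval 0.253% to 44.5%) or 0 of 13 cells (up to 24.7%) set no narrow limit on the share of cells with a read. Id4 shares 171 exonic bases with the antisense gene Gm49291 and 82 with A330033J07Rik, neither of which is in the table, and whether counting used the strand is unclear.

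Scaled to exon length as reads per kilobase of exon per 1000000 reads (RPKM), Id2 had the highest level of the 4 Id genes in all 26 listed cells. Over the summed reads it stood at 232 RPKM in AC, 1203 RPKM in CA3 and 183 RPKM in CA1. Its share of the Id family per length was 100% in the median cell of each region, with the lowest values 50.5% in AC, in N41, where Id1 supplied the rest, and 71.9% in CA3. Set against their binding partners, the summed Id genes had a median of 7.63 times the summed RPKM of the E protein genes Tcf3, Tcf4 and Tcf12 in AC cells (range 0.519 to 29.7), 22.7 times in CA3 cells (3.70 to 734) and 5.98 times in CA1 cells (3.84 to 10.9). The ranges overlapped, and the E protein sum itself had a median of 35.2 RPKM in AC, 54.9 RPKM in CA3 and 32.8 RPKM in CA1.

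Among these E protein genes, 2 of the 3 passed a filter of 10 or more cells with reads among the 23 of AC and CA3. Tcf4, the E protein gene kept on in mature neurons, was read in all 26 listed cells at a level of 11.08 ± 0.78 for AC and 11.55 ± 1.23 for CA3, which differ by -0.48. Tcf12 was read in 3 of 10 AC cells and 10 of 13 CA3 cells, with levels of 3.02 ± 4.91 and 6.67 ± 4.12 that differ by -3.65, less than the SD in either region. Tcf3 was read in 2 cells of AC, 2 of CA3 and 1 of CA1. Of 32 other helix-loop-helix genes, 22 had a read in some listed cell and 5 passed the same filter; 1 of these was higher in AC by at least 1 on the log2 scale, 1 higher in CA3 and 3 differed by less, beside 15.4% of all genes tested higher in AC and 48.1% higher in CA3. Bhlhe41, a transcriptional repressor linked to circadian timing, had reads in 9 of 10 AC cells and 5 of 13 CA3 cells and differed by 2.95, with SDs of 3.81 and 3.39, and Hif1a, the oxygen-regulated factor, differed by -2.22, within its SDs of 4.03 and 4.90. The median difference of the 5 was -0.22 against -0.91 for all genes. Among the 32, Hey2, Heyl, Olig2, Twist1, Tal1 and Lyl1 had no read in any listed cell, and Hes1, a target of Notch signalling, had 19 reads in 1 CA1 cell and none elsewhere.

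Nfib (chr4:82290173-82705750, minus strand) was read in 9 of 10 AC cells, 13 of 13 CA3 cells and 3 of 3 CA1 cells. AC cells had between 0 (N41) and 3960 reads (N42), with a median of 985. CA3 cells had between 333 (N29) and 13954 reads (N39), with a median of 1432, and the CA1 cells N1, N2X and N6 had 378, 19 and 947. The AC and CA3 cells overlapped: N39 at 1755 CPM and N32 at 1262 CPM were above every AC cell, and N41 and N46 were below every CA3 cell. Levels averaged 9.12 ± 3.40 among AC cells and 10.38 ± 1.29 among those of CA3, and the difference of -1.26 was less than the SD in AC, and relative to all genes it was -0.35. N41 decided its size: without that cell the difference was -0.25. The single cell N39 gave 43.1% of all Nfib reads in CA3, where the summed reads came to 663 CPM (656 to 670) against 374 CPM in AC (367 to 380). The difference of the medians over cells was -0.60, and the log2 ratio of the summed CPM was -0.83.

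Nfix (chr8:84699876-84800344, minus strand) had the opposite order to Id2 and Nfib, the other members read in most neurons. All 10 AC cells had Nfix reads, between 185 (N46) and 2175 (N44) with a median of 849. In CA3, N28, N29 and N39 had none, N26 had 12, and the median was 425 and the highest 1152 (N38). The CA1 cells N1, N2X and N6 had 105, 57 and 372 reads. By CPM, 4 of the 10 AC cells were above every CA3 cell and 4 of the 13 CA3 cells were below every AC cell, and the remaining cells of both regions overlapped. Levels averaged 9.73 ± 1.18 among AC cells and 6.64 ± 4.05 among those of CA3. The difference of 3.10 was less than the SD in CA3 and was 4.004 relative to all genes, which ranked Nfix 107th from the top of 5964 genes. The 3 CA3 cells at 0 weigh on the mean: the difference of the medians over cells was 1.23, and the summed reads, 287 CPM in AC (281 to 292) and 118 CPM in CA3 (115 to 121), differed 2.43-fold. N39, which had the most Nfib reads of all listed cells, held no Nfix read among 7949918 reads.

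A limit on Nfix is its neighbour on the opposite strand. G430095P16Rik shares 137 exonic bases with Nfix, had 696 reads over the listed cells and was the gene whose levels followed those of Nfix most closely (Pearson r = 0.84 over 26 cells). Reads within the 137 shared bases, of the 7351 exonic bases of Nfix, cannot be told apart if counting ignored the strand. The sources used here do not settle whether it did. Nfix had 9760 reads in AC alone, but the 696 reads counted for its neighbour do not measure how many reads of that neighbour were counted for Nfix.

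The make-up of the NFI family per exon length differed from cell to cell. Summed over the 4 genes, a cell had between 25.8 and 139 RPKM in AC (median 69.2), 10.01 and 122 RPKM in CA3 (median 46.8), and 2.85, 65.7 and 119 RPKM in the CA1 cells N2X, N1 and N6. In AC, Nfix had the highest RPKM of the 4 genes in 6 cells, Nfib in 3 and Nfic in 1 (N46). In CA3, Nfib had the highest in 9 cells and Nfix in 4, and in CA1 Nfib led in N1 and N6 and Nfix in N2X. The median share of Nfix was 49.3% in AC and 27.2% in CA3, and that of Nfib 31.1% in AC and 64.3% in CA3. Ranges of these shares overlapped widely, from 30.1% to 100% for Nfix in AC and from 0% to 86.2% in CA3.

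**Figure D3:**
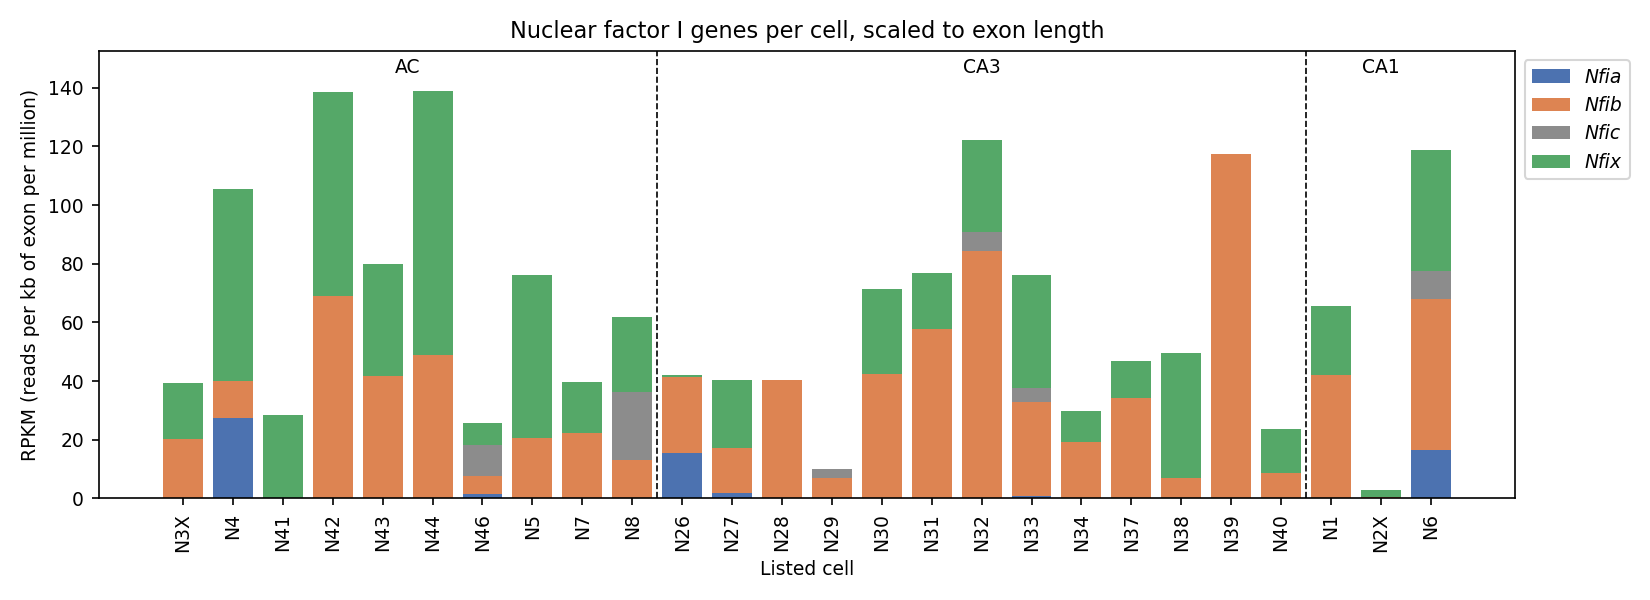
Each bar is 1 listed cell and its height the summed RPKM of the NFI genes, with a colour for each gene; dashed lines divide AC, CA3 and CA1. Green (Nfix) is largest in 6 of 10 AC bars and orange (Nfib) in 9 of 13 CA3 bars, N28 and N39 are wholly Nfib and N41 wholly Nfix.

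Nfia and Nfic, the other NFI genes, were read in a minority of the listed neurons. Their totals came largely from 1 cell in each region, except for Nfic in CA3, where the highest cell held 41.4%. Nfia (chr4:97772734-98118874, plus strand) had reads in 5 of 10 AC cells, of which N4 held 512 (90.3% of the AC total), N46 50 and the other 3 at most 2 each. In CA3 it was read in 4 of 13, with 378 reads in N26, 47 in N27, 35 in N33 and 1 in N29, and in CA1 N6 held 222 and N2X 1. N4, with most Nfia reads, also had the highest summed astrocyte genes of the AC cells, 3252 CPM from 7 of the 12 genes, whereas N26 had 162 CPM and N6 306 CPM of them; Aqp4 had no read in any of the 3. Nfic (chr10:81396186-81455635, minus strand) had reads in 3 of 10 AC cells (965 in N8, 227 in N46 and 1 in N5), in 5 of 13 CA3 cells (137 in N32, 130 in N33, 62 in N29 and 1 each in N26 and N31) and, among the CA1 cells, 78 in N6. The differences between AC and CA3 were 0.37 for Nfia and 0.14 for Nfic, both smaller than the SD, and without N4 the Nfia difference was -0.51 and without N8 the Nfic difference -0.66.

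A size of 1 on the log2 scale, a factor of 2, was met by much of the transcriptome here, and the members have to be read against that. Of the 5964 genes past this filter, 63.4% differed by at least 1 between AC and CA3, 15.4% higher in AC and 48.1% higher in CA3. Nfib, Nfix and Id2 passed it and the other 5 members did not. All 3 differed by at least 1, Nfix higher in AC and Nfib and Id2 higher in CA3, but neither Nfib nor Nfix kept this size throughout. Nfib fell short of it without N41 (-0.25), as a difference of medians (-0.60), with a pseudocount of 10 (-0.93) and by summed CPM (-0.83), and Nfix over all labelled NPY-positive cells with library size factors (0.78). With the median of the 5964 genes set to 0, 29.3% were higher in AC by at least 1 and 29.6% higher in CA3. Nfix (4.004) and Id2 (-1.48) were among them and Nfib (-0.35) was not. The filter pools the cells of both regions. A gene read only in CA3 could pass with 10 of 13 cells, whereas a gene read only in AC needed all 10. The part of this in the median and in the shares was not tested. Id2 stood 1287th from the lowest difference of the 5964 genes, so that many genes differed by more, and only 5 genes had no overlap between the AC and the CA3 cells, Id2 not among them.

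**Figure D4:**
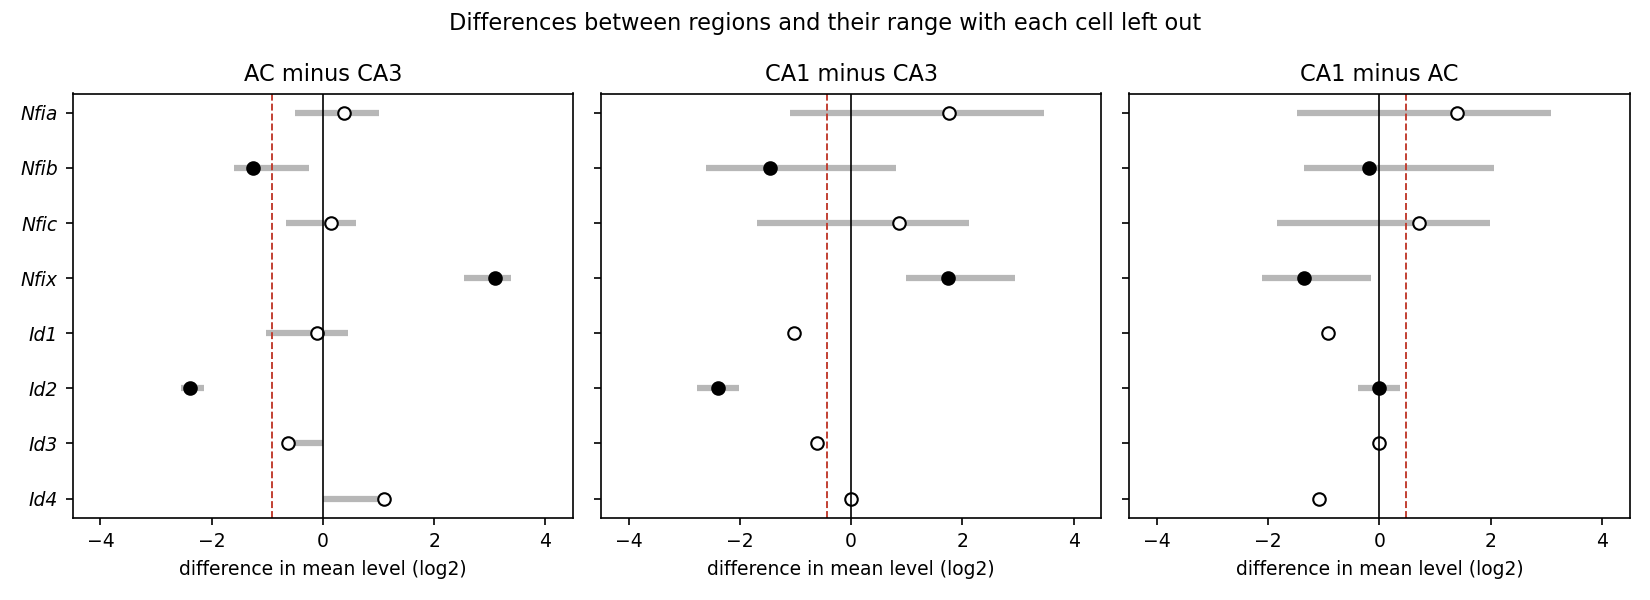
Points give the difference in mean level (log2) for each gene in 3 comparisons, filled where the gene passed the filter on cells with a read, and grey bars the range with each cell left out in turn (for the CA1 comparisons each CA1 cell). The dashed line is the median difference of all genes past that filter, -0.91, -0.44 and 0.49. The bar of Id2 is short beside its difference of -2.38 and that of Nfib reaches -0.25.

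CA1 was represented by 3 cells, and Id2 was the one member whose difference there was larger than the spread. At 10.67 ± 0.76 (SD, n = 3) its level lay below that of CA3 by 2.40 on the log2 scale, or -1.96 relative to all genes, and differed by -0.01 from that of AC. N2X and N1 had fewer Id2 CPM (279 and 464) than every CA3 cell, and N6, with 875 CPM, lay among the lower ones. With a CA1 cell left out in turn the CA1 to CA3 difference ran from -2.77 to -2.01 and the CA1 to AC difference from -0.39 to 0.37. Nfib and Nfia rested on single CA1 cells: Nfib differed from CA3 by -1.45 (SD 3.90 in CA1), but by 0.80 without N2X, and Nfia by 1.77 (SD 5.004 in CA1), but by -1.11 without N6. Nfix differed from CA3 by 1.74 (0.98 to 2.94 with a cell left out), although its summed reads, 106 CPM in CA1 and 118 CPM in CA3, had the opposite order, and from AC by -1.36 (-2.12 to -0.15), and for Nfia the difference from AC was 1.39, or -1.48 without N6. In the comparison with CA3, 68.7% of 4206 genes differed by at least 1, 28.4% higher in CA1 and 40.4% higher in CA3. In that with AC, 61.7% of 1760 genes did, 40.3% higher in CA1 and 21.4% higher in AC. Both comparisons use the same CA1 cells, and each shares its other cells with the comparison of AC and CA3.

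For the members read in most neurons, correlations of levels are given by region, and a difference between regions was not tested. They include the Nfib level of 0 in N41 and the Nfix levels of 0 in N28, N29 and N39. Over the 10 AC cells, Nfix and Id2 had a Pearson r of 0.64 and a Spearman rho of 0.71, and Nfib and Id2 0.33 and 0.61, whereas over the 13 CA3 cells these were 0.31 and 0.31 for Nfix and Id2 and 0.12 and 0.13 for Nfib and Id2. Nfib and Nfix had an r of 0.20 and a rho of 0.44 in AC, and -0.09 for both in CA3. Of the 26 listed cells, 22 held reads of both Nfib and Nfix, 3 of Nfib without Nfix and 1, N41, of Nfix without Nfib. Pairs with an Id gene read in single cells gave larger values that rest on those cells, such as an r of -0.94 for Nfib and Id1 in AC, through N41, and 0.79 for Id1 and Id3 in CA3, through N29. These values are descriptions over cells that share a region and a size factor fit.

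The genes whose levels most resembled each abundant member over the 26 cells were searched among 6597 genes. For Id2 they were H2afz (a histone variant gene, Pearson r = 0.74), Calm2 (a calmodulin gene, 0.74) and Phgdh, which encodes the first enzyme of serine synthesis (0.73). Phgdh is best known from astrocytes, and it was read in none of the 10 AC cells, 9 of 13 CA3 cells and 1 CA1 cell. For Nfix the nearest genes after its antisense neighbour were Ncald, encoding the calcium sensor neurocalcin delta (0.76), and Cplx3, encoding a complexin of the transmitter release machinery (0.70). For Nfib they were Canx (0.86), Psip1 (0.80) and Uqcr11 (0.76), all of which, like Nfib, were read in 9 of 10 AC cells and 13 of 13 CA3 cells. The Nfib level was 0 in N41 alone, and the weight of that cell in these values was not tested. For Nfia they were Dkc1 (0.81), Dusp7 (0.64) and Wdr26 (0.61), with Nfia itself at 0 in 15 of the 26 cells. The likeness includes the difference between regions and the shared depth of each cell.

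The upstream pathway of the Id genes was thinly covered. None of 15 BMP ligand and antagonist genes passed the filter, although 11 had a read in some listed cell. Bmp3 had reads in 3 of 10 AC cells and 1 of 13 CA3 cells, Gdf10 in 3 and 6, and the antagonist gene Chrd in 4 and 3. Of 10 receptor genes 3 passed: Bmpr2, the type II BMP receptor gene, differed by -1.34, Acvr2a, an activin and BMP receptor gene, by -1.60 and Rgmb, a BMP co-receptor gene, by 0.75. Their median was -1.34 against -0.91 for all genes, and 2 of the 3 were higher in CA3 by at least 1, as were 48.1% of all genes tested. Of 8 Smad genes only Smad4, the shared partner of the signalling Smads, passed, with a difference of -2.66. The differences of these 3 receptor genes and of Smad4 were all smaller than the SDs over cells, which lay between 3.69 and 5.30. None of 9 genes regulated by or together with NFI in glia passed, and 5 of them had a read in some listed cell. Among 8 transcription factor genes of the ganglionic eminences 2 passed. Nr2f1, of caudal origin, differed by 2.12, within its SDs of 3.88 and 3.69. Lhx6, of medial origin, passed by its 12 CA3 cells alone. It had no read in the 10 AC cells, a limit of 0.0881 CPM, and 328 CPM in CA3. Prox1, of caudal origin, did not pass. It was read in 7 AC, 2 CA3 and 3 CA1 cells and differed by 4.40 between AC and CA3, with SDs of 4.88 and 2.46. Nkx2-1, of medial origin, did not pass either, with reads in 6 CA3 cells and none in AC.

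The libraries without a Gad1 read gave a contrast with cells that were not identified as GABAergic neurons. There were 15 of them: N10, N48, N49, N50 and N52 labelled AC, N13, N14, N15, N17, N18, N22 and N23 labelled CA3, the DG libraries N11 and N12, and the NPY-negative CA3 cell N16. They were chosen by this measured value and are not replicates of a group, so that each is given by itself. They were shallower than the neurons in most cases (40934 to 5135021 reads, median 291745). The extremes were plain: N10, N11, N12, N13, N17 and N22 had 35741 to 42935 CPM of the 12 astrocyte genes, and N16, N18 and N23 had 127294 to 194639 CPM of the oligodendrocyte genes. N11 also had 39072 CPM of oligodendrocyte genes, N15 had 32035 CPM, and N14 had 6199 CPM of them beside 4528 CPM of oligodendrocyte precursor genes.

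Id2 reads were found in 5 of the 6 libraries richest in astrocyte genes and in none of the 4 with 32035 CPM or more of oligodendrocyte genes and at most 860 CPM of astrocyte genes. Of the libraries rich in astrocyte genes, N22 had 1854 Id2 reads (6060 CPM), N12 754 (3956 CPM), N13 486 (2240 CPM), N10 723 (2182 CPM) and N17 15 (120 CPM). N11 had no read of any of the 8 members, at a limit of 33.6 CPM for 3 reads. N15, N16, N18 and N23 had no Id2 read, which at 3 reads allows up to 13.1, 10.3, 8.68 and 7.34 CPM, and N14 had 146 reads (1304 CPM). The 4 highest of these libraries lay within the range of the CA3 neurons, 591 to 8824 CPM, whose astrocyte genes summed to at most 660 CPM.

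Nfia was read on both sides. It had 192 reads (580 CPM) in N10, 38 (175 CPM) in N13, 44 (144 CPM) in N22 and 33 (173 CPM) in N12. N17 and N11, also rich in astrocyte genes, had none, at limits of 23.9 and 33.6 CPM. Among the libraries rich in oligodendrocyte genes, Nfia had 105 reads (304 CPM) in N18, 73 (179 CPM) in N23 and 65 (223 CPM) in N16. N14 and N15, with reads of 4 of the 5 oligodendrocyte precursor genes, had 49 and 34 Nfia reads (438 and 148 CPM). N52 had 10822 CPM from 1 of these 5 genes but only 40934 reads in all. It had no Nfia read, at a limit of 73.3 CPM. Thus 10 of the 15 libraries held Nfia reads, against 11 of the 26 listed neurons; after thinning to 100000 reads, which left out N11 and N52 as shallower, it was 9 of 13 libraries and 6 of 26 neurons. In neurons the 4 highest Nfia values were 299 CPM in N4, 180 CPM in N6, 170 CPM in N26 and 18.8 CPM in N27.

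The other members showed each a pattern of their own in these libraries. Nfib had reads in 10 of the 15, up to 402 CPM (N14) apart from N48, and Nfix in 10, up to 550 CPM (N17) apart from N48. Nfic was read in N13, N14, N15, N17 and N22, with 78.4 to 607 CPM, which includes values above the highest neuron, N8 at 154 CPM. N22 alone held all 8 members, with 512 Id3 reads (1673 CPM), 85 Id1 reads (278 CPM) and 28 Id4 reads (91.5 CPM). Id4 had another 54 reads (283 CPM) in N12 and Id1 another 14 (47.99 CPM) in N16, the NPY-negative cell. N48 stood apart from the glial libraries: with 5135021 reads it had no Gad1 read, 6 Gad2 reads and 2453 Npy reads, and it held 2704 Nfib reads (527 CPM) and 3218 Nfix reads (627 CPM) with no read of an Id gene. N49, N50 and N52 held at most 13 reads of any member.

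**Figure D5:**
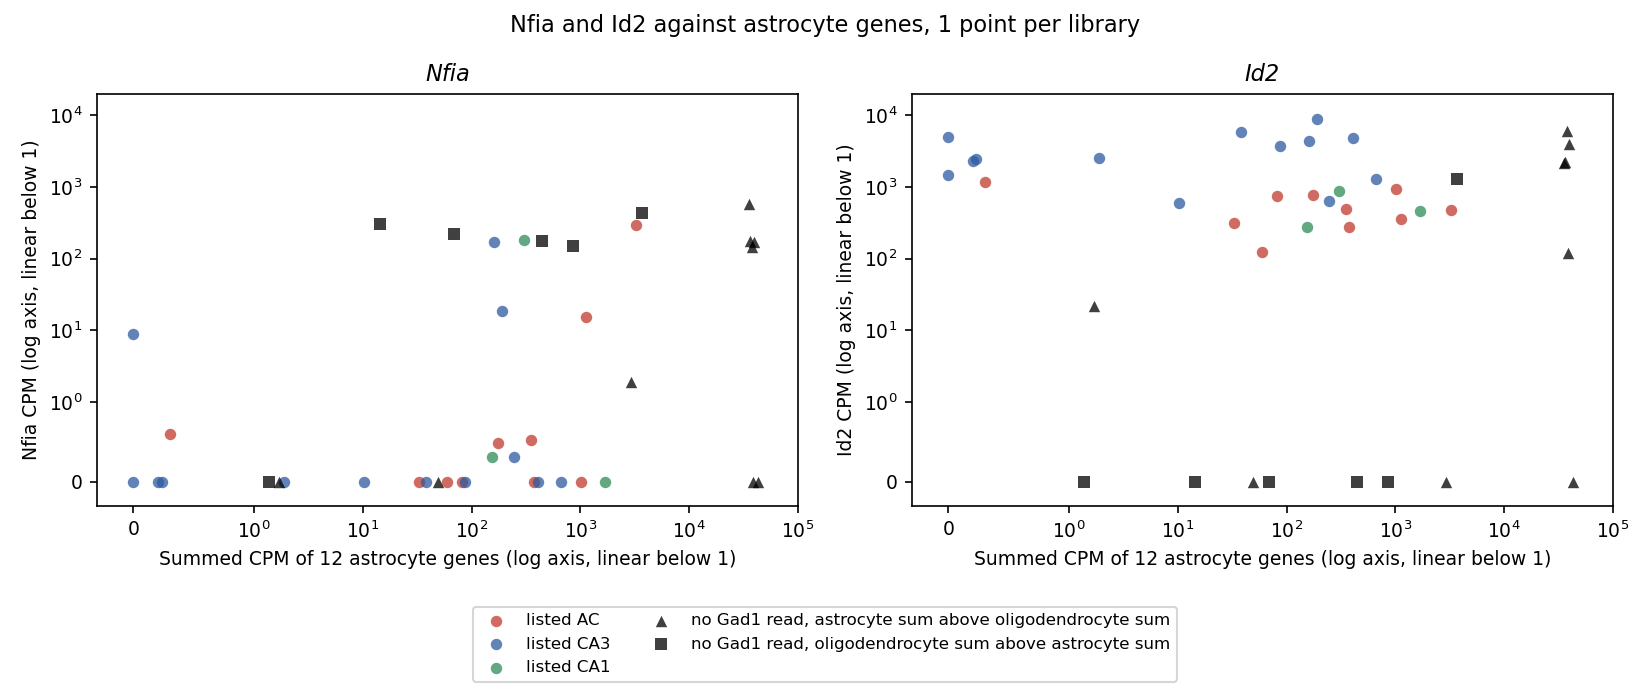
Each point is 1 library; the horizontal axis is the summed CPM of 12 astrocyte genes and the vertical axis the CPM of Nfia or Id2, both logarithmic above 1 and linear below. For Id2 the listed neurons lie between 123 and 8824 CPM at lower astrocyte sums. The triangles at the highest astrocyte sums reach 6060 CPM and most squares lie at 0. For Nfia most neurons lie at or near 0, and triangles and squares reach 580 and 438 CPM.

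A few further libraries with Gad1 reads were not among the listed cells, and the value of Id2 in AC depends on them. N45, N47, N51 and N9, all labelled AC, had 40.6, 24.5, 0 and 0 CPM of Id2, less than every listed AC cell, and N9 had 2 Gad1 reads only. The CA3 library N36 had 7282 Id2 reads (2951 CPM), within the range of the listed CA3 cells. With all labelled NPY-positive cells that held a Gad1 read, 14 of AC and 14 of CA3, the Id2 difference was -4.42, Nfix differed by 1.49, with 3875 reads in N47 and none in N51, and Nfib by -1.26. In this set N9 had a size factor of 0.00142, against 0.0659 by library size, so that its 4 Nfib and 83 Nfia reads became levels of 11.46 and 15.84. Without N9, a choice made after seeing the data, the differences were -3.76 for Id2, 2.09 for Nfix, -1.46 for Nfib and 0.05 for Nfia.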

How the data were processed

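Cytosol of single cells was collected by patch pipette and sequenced as polyA-selected cDNA (Nextera XT). The authors trimmed the reads, aligned them with STAR to mouse genome GRCm38 and deposited 1 table of raw read counts per gene symbol. The study's methods name HTSeq for counting, while the submitters' processing notes list Trimmomatic, STAR, featureCounts and GRCm38. For the strand the methods name sense, antisense and both as options. Which of them was used is not given in the sources used here. Counts of Ensembl identifiers sharing a symbol had been averaged, and the table was not normalised.

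Groups came from the labels. The 8 members, the gene lists and the listed cells were chosen with earlier results of these data known. Levels are log2(count divided by size factor + 1) with size factors of scran 1.30.0 (pool sizes 10 and 20) over the 26 listed cells, scaled to a mean of 1. Regions were compared by the difference in mean level, spoken of as met at 1 or more, over genes for which 10 or more of the cells compared held reads. CPM divides reads by all reads in the table, and RPKM also by merged exon length (GENCODE, GRCm38). Sums carry exact Poisson and shares exact Clopper-Pearson 95% intervals, and a count of 0 a limit of 3 reads. In a check on simulated counts with 200 changed genes, 195 were recovered in the right direction for AC against CA3. The changed genes were all read in 10 or more cells, and no loss of genes in single cells was simulated. The check thus covers the computation and does not measure how reliable the real differences are. In the glial contrast, markers are 12 astrocyte genes and similar lists.

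Named genes were the 8 members, genes of the partner and pathway lists where a list's count is given, and, for each member read in at least 10 of the 26 listed cells, the 3 genes with the highest Pearson correlation of levels. Genes named for having no read or for their place in a family were chosen after their values were seen. Alternatives were library size, TMM (edgeR 4.0.16) and poscounts (DESeq2 1.42.0) factors, pseudocounts of 0.1 and 10, other cell sets, medians, thinned reads, and each cell left out.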

Additional observations from a re-analysis of the deposited data

Results flagged for a closer look

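Within the 10 listed AC cells, 3 values lay far from the other 9 by the gap between them and the nearest cell: the Nfib level of 0 in N41, the Id1 level of 9.19 in N41 and the Id4 level of 10.92 in N42. Chance flags about 1 in 20 groups where values spread normally, which does not apply to Id1 and Id4: the other 9 cells had no read, so that any single value above 0 would stand apart in this way.

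Members also had reads in libraries that no comparison between regions used. The DG library N12 held 754 Id2, 54 Id4, 51 Nfib and 33 Nfia reads, beside 39896 CPM of astrocyte genes, and the other DG library, N11, held none of them. The NPY-negative CA3 cell N16 held 65 Nfia, 14 Id1, 6 Nfib and 6 Nfix reads, beside 194639 CPM of oligodendrocyte genes.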

How the results depend on the processing

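The Id2 difference between AC and CA3 kept its direction and its size of at least 1 under all 13 alternatives, from -4.42 to -2.26; it was -4.42 over cells with a Gad1 read, -3.76 over these without N9 and -3.66 over all labelled cells with library size factors, the last 2 added after seeing the data, as was the value of -2.26 with factors from AC and CA3 cells alone. That of Nfix stayed positive, from 0.78 (all labelled cells with library size factors, under 1) to 3.87, and that of Nfib negative, from -2.11 to -0.60, under 1 in size with medians, a pseudocount of 10 and summed CPM. Nfia (-1.66 to 1.07, the highest resting on N9) and Nfic (-2.07 to 2.37) turned direction, at their lowest when all labelled cells entered, and so did Id1 (-0.29 to 1.53). Taken as log2 ratios of summed CPM, Id4 was higher in AC by at least 9.59 and Id3 differed by -5.98 as a bound, both against the limit of 3 reads and both from 1 cell. Genes differing by at least 1 between AC and CA3 numbered 3783, and 6319 when all genes with a read in any cell entered, the larger number of genes being the cause by construction. With each CA1 cell left out, Nfia differed from CA3 in CA1 by -1.11 to 3.47 and from AC by -1.48 to 3.09, and Nfib from CA3 by -2.61 to 0.80.

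Scran gave no usable factor for N9 and N49, so both were left out where all labelled cells entered with scran factors; with library size factors both entered. Depth limits the shallow glial libraries most: a count of 0 allows 73.3 CPM in N52. No paired analysis was possible because the mouse behind each cell is not given and replicate numbers only follow accession order.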
